A study of Mus musculus with 12 samples.

Results

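Genes of the cell division cycle and of growth arrest were followed in mouse macrophages that received the lipopeptide MALP-2. The set holds 46 genes named for their roles: the D cyclins with their kinases, the G1/S cyclins with the E2F and pocket proteins, the S-phase genes, the mitotic genes, the inhibitors of cyclin-dependent kinases (CDKs), and growth arrest genes. Of these, 45 had a value among the 18194 genes read on the arrays, each from the probeset with the highest mean over 11 arrays. The deposited values are log2 intensities after RMA, so that 1 unit is a 2-fold difference. A gene was tested when its mean over the 11 arrays reached 3.83, the median of all their values, and 41 members passed. Tyms, Aurka, Aurkb and Plk1 stayed under this floor, and Ccnb1 was not analysed here.

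The macrophages were recruited into the peritoneum with thioglycollate, from IRAK1/IRAK2 KO mice (the double knockout), IRAK2 KO mice and wild-type mice. They were left unstimulated (0 h) or kept with 100 ng/ml MALP-2 for 2, 4 or 8 h, which gives 12 groups with 1 array each. Strain, age, sex, the kind of mutant alleles and whether animals were pooled are not given in the sources used here. IRAK1 and IRAK2 are kinases that pass the signal of Toll-like receptors from MyD88 to TRAF6, and MALP-2, a synthetic mycoplasma lipopeptide, acts through the TLR2 and TLR6 pair. With 1 array per group, no value has a replicate check. Each p-value below comes from an additive limma fit, adjusted over the 10858 genes tested, and a gene was called at an adjusted p under 0.05. A genotype difference is weighed against its constancy over 2, 4 and 8 h, and the response to MALP-2 against its constancy over wild type and the IRAK2 knockout. Neither measures the spread between mice.

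D cyclins bind CDK4 and CDK6, which phosphorylate the retinoblastoma family and so release E2F factors. E2F then drives cyclin E, the MCM helicase and the enzymes of nucleotide synthesis, while mitotic genes are read later through complexes that recognise CHR elements. CDK inhibitors hold these kinases back, and the GADD45, BTG and FoxO-dependent genes act in arrest and stress. Macrophages divide in response to CSF1, and Toll-like receptor ligands are known to block that division in cultured mouse macrophages.

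The promoters of the S-phase and mitotic members carry different words, and 5 are printed here to show these words. Among these 5, genes that share a word differed in their calls given below. Of Mcm5 and Mcm6, which hold the E2F word, Mcm5 was called higher in the double knockout and Mcm6 was not. Mki67 holds the CHR word like Cdk1 and Top2a but was called in the opposite direction. Whether the words go with the expression differences over all members was not tested. The sequences are RefSeq's on GRCm38.p6, 300 bases from 250 before to 50 after the start, and 38 of the 46 members matched a window. Capitals mark the E2F word TTTGGCGC on either strand in the first and second sequence, and the CHR word TTTGAA on either strand in the others. The places are chr8:75109259-75109558, plus strand for Mcm5, chr1:128359656-128359955, minus strand for Mcm6, chr10:69352863-69353162, minus strand for Cdk1, chr11:99024140-99024439, minus strand for Top2a, and chr7:135716330-135716629, minus strand for Mki67.
Mcm5: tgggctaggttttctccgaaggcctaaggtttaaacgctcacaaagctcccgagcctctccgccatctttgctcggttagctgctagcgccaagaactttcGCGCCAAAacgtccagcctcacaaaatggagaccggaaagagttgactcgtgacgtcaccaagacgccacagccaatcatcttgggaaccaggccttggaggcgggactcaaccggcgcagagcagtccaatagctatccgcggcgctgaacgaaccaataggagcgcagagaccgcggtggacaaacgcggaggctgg
Mcm6: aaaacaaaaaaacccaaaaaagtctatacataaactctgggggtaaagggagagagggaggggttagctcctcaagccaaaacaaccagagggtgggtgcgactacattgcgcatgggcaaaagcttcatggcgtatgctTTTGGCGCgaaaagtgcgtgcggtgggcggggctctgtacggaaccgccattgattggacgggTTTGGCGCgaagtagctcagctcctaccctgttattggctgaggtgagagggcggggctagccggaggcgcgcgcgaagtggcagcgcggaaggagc
Cdk1: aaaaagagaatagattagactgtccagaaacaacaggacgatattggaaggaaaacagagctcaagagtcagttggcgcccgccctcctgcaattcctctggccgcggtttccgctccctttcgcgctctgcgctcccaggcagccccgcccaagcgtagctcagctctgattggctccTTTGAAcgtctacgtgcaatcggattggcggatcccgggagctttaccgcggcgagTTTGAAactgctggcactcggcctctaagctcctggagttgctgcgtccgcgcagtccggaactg
Top2a: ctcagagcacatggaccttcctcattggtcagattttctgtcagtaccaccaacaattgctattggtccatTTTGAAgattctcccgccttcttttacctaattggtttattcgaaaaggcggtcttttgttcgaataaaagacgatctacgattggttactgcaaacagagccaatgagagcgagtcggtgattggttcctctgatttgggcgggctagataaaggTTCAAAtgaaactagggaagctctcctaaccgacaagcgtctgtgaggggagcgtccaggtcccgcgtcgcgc
Mki67: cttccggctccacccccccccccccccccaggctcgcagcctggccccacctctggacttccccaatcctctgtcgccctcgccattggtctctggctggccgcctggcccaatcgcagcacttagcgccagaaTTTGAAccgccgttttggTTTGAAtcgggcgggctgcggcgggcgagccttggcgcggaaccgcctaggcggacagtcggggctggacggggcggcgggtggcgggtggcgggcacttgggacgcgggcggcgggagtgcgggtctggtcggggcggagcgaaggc
Of the S-phase members with a window, 4 of 10 (Mcm3, Mcm5, Mcm6 and Mcm7) held TTTGGCGC or TTTCCCGC, as did Cdk2 and E2f2, against 0 of 11 mitotic members and 1.56% of 32851 windows of all genes. The CHR word stood in 8 of 11 mitotic members (Aurka, Bub1b, Ccnb2, Cdc20, Cdk1, Mki67, Plk1 and Top2a), in 1 of 10 S-phase members, and in 17.9% of all windows. A member counts when any of its windows holds the word, and the 38 members have 43 windows. The shares of all genes count single windows, so the 2 measures are not the same. CCAAT, searched on both strands like the others, was in 10 of 11 mitotic members and 37.4% of all windows. It was not particular to them: 8 of 10 S-phase members, 4 of 5 growth arrest genes and 3 of 4 CDK inhibitors held it. Over all members it was in 28 of 38. An NF-kB consensus word was found in 1 member, Birc5 (0.411% of all windows), and the FoxO word TGTTTAC in 3, Btg1, Ccnd3 and Mcm7 (3.65% of all). No matches of different words overlapped. Such a match describes the letters and says nothing about binding in these cells.

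The double-knockout array of 0 h correlated with the other 11 at 0.764 to 0.804, while those 11 correlated with each other at 0.954 or more, so it enters no comparison. The stimulated double-knockout arrays also had lower 5' minus 3' differences than the other 8, from -4.68 to -3.87 against -3.72 to -3.18 for actin, and from -5.90 to -4.36 against -3.84 to -3.42 for Gapdh. The part of this in the genotype differences was not tested. All 12 macrophage markers were above the floor, with a summed level of 14.57 to 14.63 in the stimulated double knockout, 14.69 to 14.74 in the IRAK2 knockout and 14.65 to 14.70 in wild type. Neutrophil markers, 4 of 9 above the floor with S100a9, Cxcr2 and Ngp under it, summed to 9.46 to 9.72 in the double knockout, 10.68 to 10.98 in the IRAK2 knockout and 10.86 to 11.24 in wild type. Eosinophil and mast cell markers, 3 of 9 above the floor with Prg2, Epx and Ccr3 under it, summed to 8.13 to 8.45 in the double knockout, 7.20 to 7.76 in the IRAK2 knockout and 7.19 to 7.64 in wild type. B cell markers, 5 of 8 above it, ran from 9.60 to 10.27 in the double knockout, 9.17 to 9.44 in the IRAK2 knockout and 9.48 to 9.65 in wild type. At 0 h the B cell sum was 10.08 in the IRAK2 knockout and 10.44 in wild type, the eosinophil and mast cell sum 7.95 in the IRAK2 knockout and 8.02 in wild type, and the neutrophil sum 10.49 in the IRAK2 knockout and 10.73 in wild type. In both of these genotypes the B cell and the eosinophil and mast cell sums were thus lower at every stimulated time than at 0 h. Mesothelial and stromal markers (7 of 11) and T and NK cell markers (1 of 10) overlapped between the genotypes, and 0 of 3 erythroid markers reached the floor. The part of such cells in the results was not tested, and in bulk RNA fewer dividing cells and less RNA per cell cannot be told apart. Irak2 read 5.19, 4.61 and 5.09 in the stimulated double knockout, 5.51, 4.71 and 4.65 in IRAK2 KO cells and 6.69, 6.29 and 5.77 in wild type. Irak1 read 8.25, 8.31 and 8.11 in the double knockout against 8.48, 8.46 and 8.48 in wild type, and where these probes lie relative to the deletions is not given.

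Under MALP-2 most S-phase genes and the pocket proteins Rb1 and Rbl1 fell, whereas cyclin D2, the CDK inhibitor Cdkn1a and the growth arrest genes Gadd45a, Gadd45b, Btg1 and Btg2 rose. Over wild type and the IRAK2 knockout, the mean of 2, 4 and 8 h against 0 h was called higher for 8 of 41 members and lower for 21. Among all genes tested 18.8% were called higher and 28% lower, and the median difference was -0.30 log2 for the members and -0.06 for all genes. With each array centred on its median, 8 members were higher and 17 lower, and 2523 genes were called higher and 2479 lower in place of 2037 and 3044. Without the 2 h arrays 5 members were higher in place of 8, and the share of all genes in that fit is not given here. By role, 7 of the 10 tested S-phase genes fell and 0 rose (median -0.49), as did 4 and 0 of 7 G1/S genes (median -0.51). By time, 8 members were higher and 20 lower at 2 h (16.2% and 29% of all genes), 8 and 18 at 4 h (17.2% and 23.1%), and 4 and 18 at 8 h (14.7% and 18%). The median of all genes tested was -0.12 at 2 h, and centring the arrays shifted it by 0.13. Of 9 mitotic genes 3 fell and 1 rose, of 4 CDK inhibitors 3 fell and 1 rose, of 5 D cyclins and kinases 2 fell and 2 rose, and of 6 growth arrest genes 2 fell and 4 rose. The B cell and the eosinophil and mast cell sums, given above, were also lower after MALP-2, and their part in the falls was not tested.

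**Figure D1:**
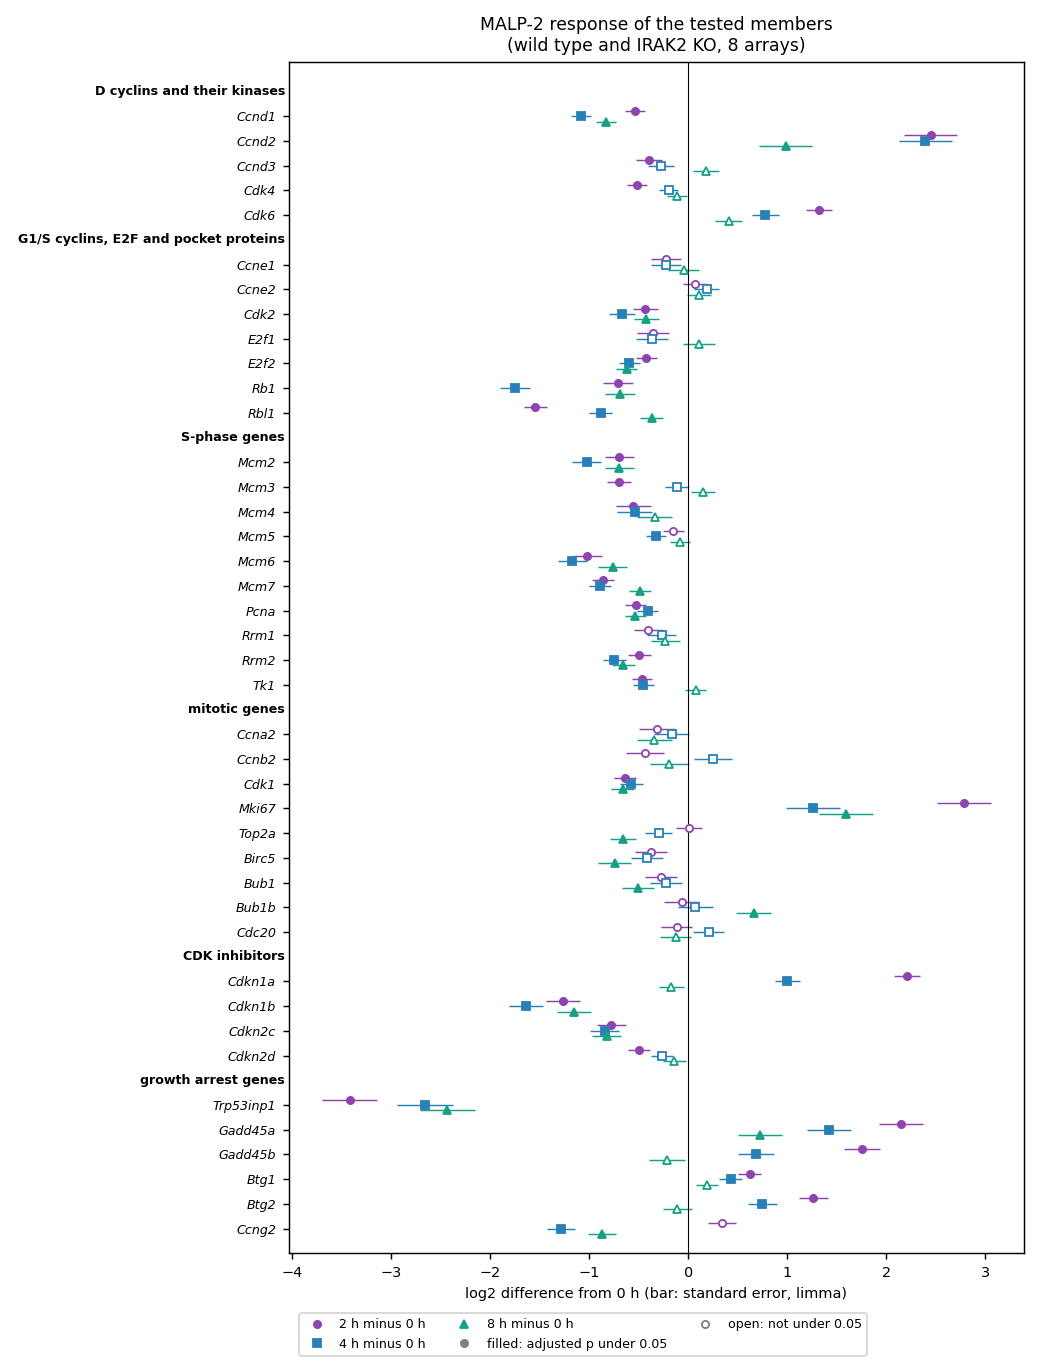
Response to MALP-2 of the 41 tested members, by role: the log2 difference from 0 h at 2, 4 and 8 h on the x axis, from the limma fit on 8 arrays of the IRAK2 knockout and wild type, with its standard error as a bar. Filled symbols have an adjusted p under 0.05, and the largest drop is that of Trp53inp1 at 2 h, -3.42, and the largest rise that of Mki67 at 2 h, 2.79.

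In the stimulated double knockout many S-phase, G1/S and mitotic genes stood higher than in wild type, as did Cdkn1b and Trp53inp1, while cyclin D2, Cdkn1a, Gadd45a and Gadd45b stood lower. Against wild type over 2, 4 and 8 h, 19 of 41 members were higher and 7 lower, where 23.8% of all genes tested were higher and 17.4% lower. The median difference was 0.49 for the members and 0.07 for all genes. Of the S-phase genes 5 of 10 were higher and 0 lower (median 0.72), of the G1/S genes 4 of 7 higher and 1 lower (median 0.72), and of the mitotic genes 5 of 9 higher and 1 lower (median 0.51). The growth arrest genes split into 2 higher and 3 lower of 6, the CDK inhibitors into 1 higher and 1 lower of 4, and the D cyclins and kinases into 2 higher and 1 lower of 5. Without the 4 h arrays 4 members were lower in place of 7, and in the fit of these 2 genotypes alone 17 were higher and 6 lower, with Cdk6, Rb1 and Cdk2 no longer called. The shares of all genes in these smaller fits are not given here. The eosinophil and mast cell sum was also higher in the stimulated double knockout than in wild type and the neutrophil sum lower, without overlap, while the B cell sums overlapped with wild type, and the part of these in the differences was not tested. These comparisons share the stimulated wild-type arrays with the response.

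**Figure D2:**
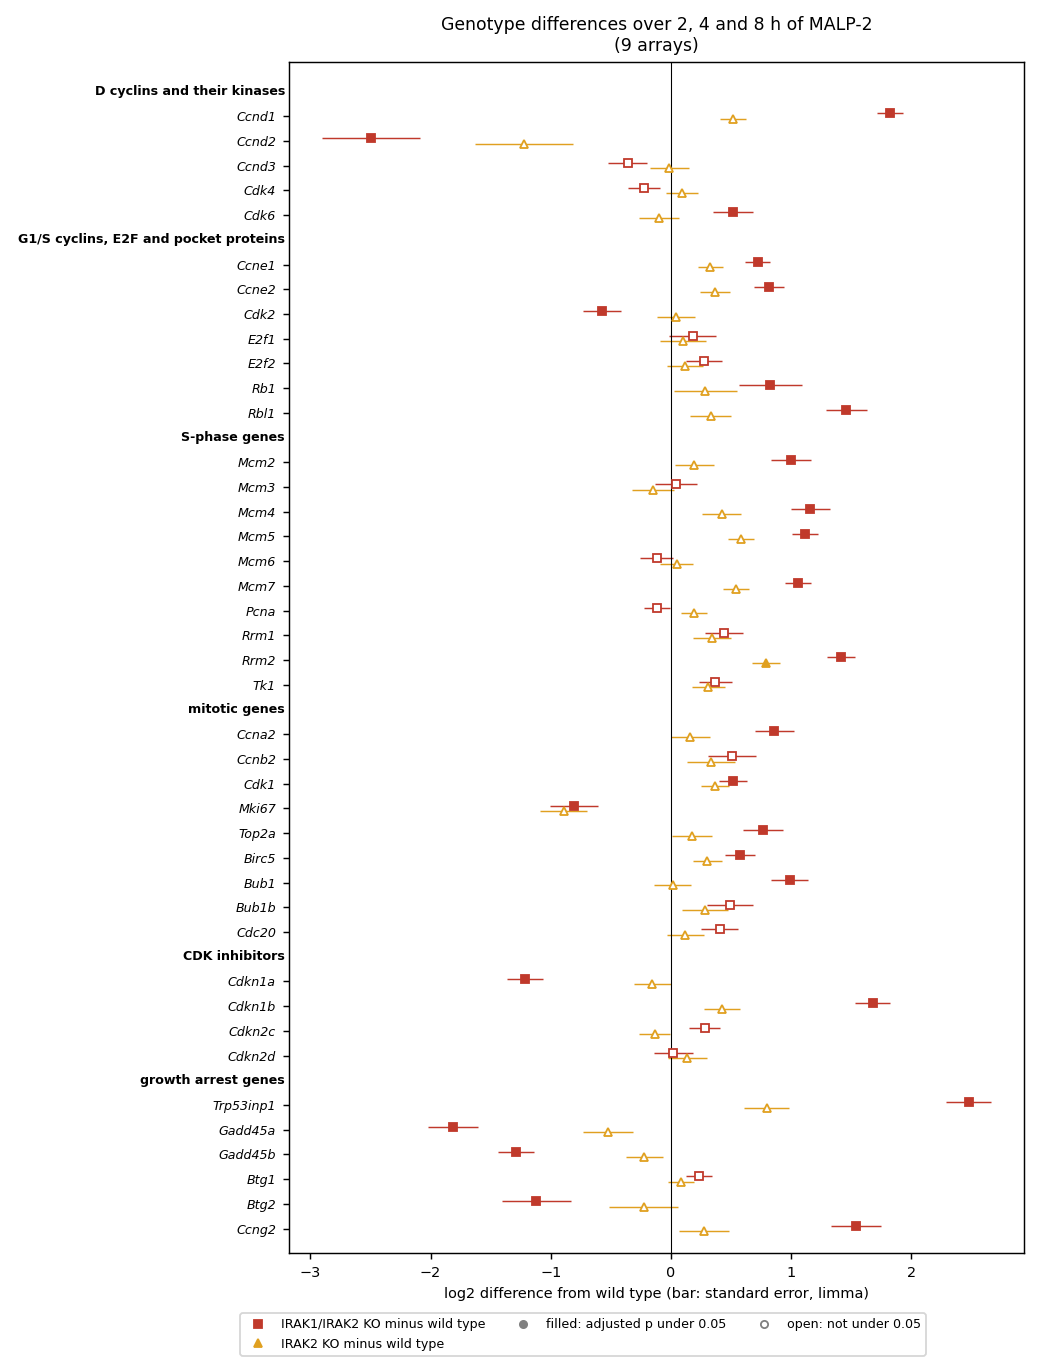
Genotype differences of the 41 tested members by role: the log2 difference from wild type over 2, 4 and 8 h on the x axis for the double knockout (squares) and the IRAK2 knockout (triangles), from the limma fit on 9 arrays, with its standard error as a bar. Filled symbols have an adjusted p under 0.05: 26 squares and 1 triangle, Rrm2.

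The D cyclins moved apart. Values of single genes are given in log2 for the double knockout at 2, 4 and 8 h, and for the IRAK2 knockout and wild type at 0, 2, 4 and 8 h, always in that order. Ccnd1 read 7.74, 7.37 and 7.68 in the double knockout, 7.12, 6.59, 6.004 and 6.26 in IRAK2 KO cells and 6.58, 6.02, 5.52 and 5.77 in wild type. Cyclin D1 fell under MALP-2 by a log2 difference of -0.82 (SE 0.08, adjusted p = 1.37e-04), and stood 1.82 (SE 0.11, adjusted p = 2.05e-05) higher in the double knockout than in wild type, all 3 double-knockout values lying above every value of the others. For Ccnd2 the double knockout had 4.10, 4.26 and 4.85, the IRAK2 knockout 4.25, 6.34, 5.997 and 4.68 and wild type 4.43, 7.24, 7.48 and 5.98. Cyclin D2 went the other way: its response was 1.94 (SE 0.22, adjusted p = 2.45e-04), and the double knockout was at -2.49 (SE 0.41, adjusted p = 0.0018) against wild type, near the 0 h values of the other genotypes. Of the 7 Ccnd2 probesets, all had a negative double-knockout difference, from -2.49 to -0.04. Read as the median over its probesets, Ccnd2 had -0.48 against wild type and 0.34 as response, both not called, and the same median for Ccnd1 gave a response of -0.03.

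The Ccnd3 values were 3.92, 3.50 and 4.64 in the double knockout, 4.68, 4.21, 4.29 and 4.60 in IRAK2 KO cells and 4.40, 4.08, 4.24 and 4.83 in wild type. Cyclin D3 had no called mean response or genotype difference, but was lower at 2 h than at 0 h, -0.40 (SE 0.13, adjusted p = 0.042). It differed by 0.62 (SE 0.16, adjusted p = 0.025) between 8 and 2 h over the 3 genotypes, not called without wild type (0.56) or without the IRAK2 knockout (0.74). Cdk6 read 8.32, 8.20 and 8.10 in the double knockout, 6.77, 8.11, 7.40 and 7.28 in IRAK2 KO cells and 6.85, 8.15, 7.78 and 7.15 in wild type. Cdk6, a partner kinase of the D cyclins, rose by 0.84 (SE 0.11, adjusted p = 5.37e-04) under MALP-2 and was 0.51 (SE 0.17, adjusted p = 0.035) higher in the double knockout than in wild type. A second Cdk6 probeset above the floor gave -0.63 for that difference, the opposite sign, and the call was also missing without the 4 h arrays (0.56), without the 8 h arrays (0.30), with centred arrays (0.45) and in the fit of the 2 genotypes alone (0.51 (adjusted p = 0.066)). For Cdk4 the double knockout had 7.87, 7.66 and 8.16, the IRAK2 knockout 8.48, 7.99, 8.29 and 8.35 and wild type 8.42, 7.86, 8.20 and 8.31. Cdk4, the other partner, fell slightly, with a difference of -0.28 (SE 0.08, adjusted p = 0.024), a call missing without the 2 h arrays (-0.16) and with centred arrays (-0.20).

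**Figure D3:**
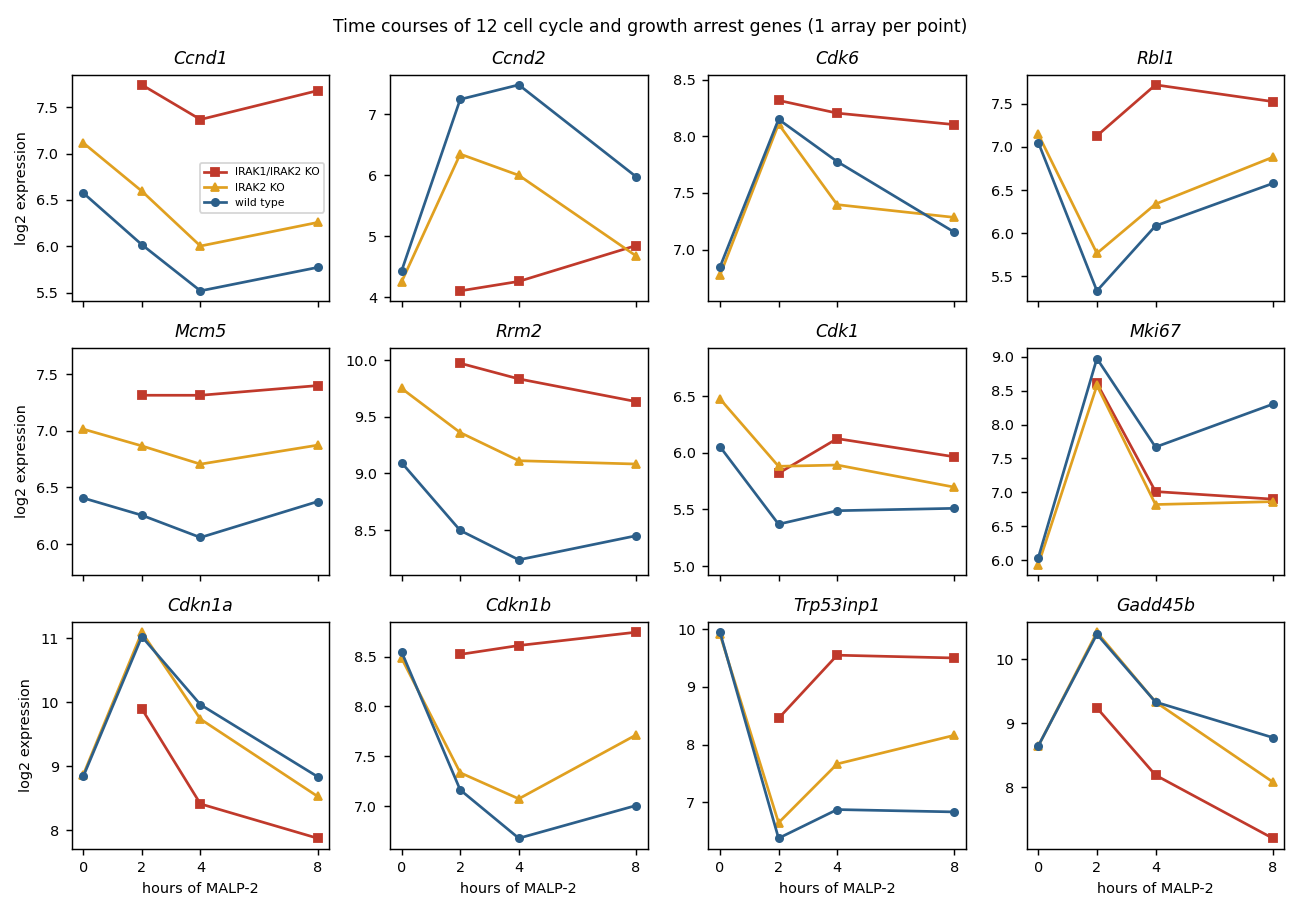
Values of single members in log2 intensity (y axis) at 0, 2, 4 and 8 h of MALP-2 (x axis) in the 3 genotypes, 1 array per point; the double knockout is drawn at 2, 4 and 8 h. Cdkn1b and Trp53inp1 of the stimulated double knockout lie at 8.52 to 8.75 and 8.46 to 9.55, above all stimulated wild-type values, and Gadd45b lies below wild type at each time, with differences of -1.15, -1.14 and -1.57.

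Among the G1/S genes the pocket proteins fell most. The Rb1 values were 8.35, 8.76 and 8.81 in the double knockout, 8.92, 8.34, 7.45 and 8.50 in IRAK2 KO cells and 9.09, 8.25, 7.06 and 8.13 in wild type. Rb1, the retinoblastoma protein itself, fell, with a response of -1.05 (SE 0.12, adjusted p = 3.09e-04), and was 0.83 (SE 0.26, adjusted p = 0.032) higher in the double knockout than in wild type, with a gap at 4 h of 1.70. That call was missing without the 4 h arrays (0.39), without the 8 h arrays (0.90), with the median over its probesets (0.44) and in the fit of the 2 genotypes alone (0.83 (adjusted p = 0.058)). Rbl1 read 7.13, 7.72 and 7.53 in the double knockout, 7.15, 5.77, 6.34 and 6.88 in IRAK2 KO cells and 7.05, 5.33, 6.09 and 6.58 in wild type. Its relative Rbl1 (p107) responded by -0.93 (SE 0.09, adjusted p = 1.42e-04), lowest at 2 h in both genotypes with a 0 h array, and was 1.46 (SE 0.17, adjusted p = 3.88e-04) higher in the double knockout, whose 3 values did not overlap with the stimulated values of wild type or the IRAK2 knockout.

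The E cyclins, which activate CDK2, had no called response. For Ccne1 the double knockout had 5.72, 5.72 and 5.73, the IRAK2 knockout 5.23, 5.23, 5.31 and 5.46 and wild type 5.43, 4.98, 4.91 and 5.11. The Ccne2 values were 5.46, 5.68 and 5.27 in the double knockout, 4.84, 5.02, 5.15 and 4.89 in IRAK2 KO cells and 4.59, 4.55, 4.66 and 4.76 in wild type. The double knockout was higher than wild type by 0.72 (SE 0.11, adjusted p = 0.0011) for Ccne1 and 0.82 (SE 0.13, adjusted p = 0.0014) for Ccne2, with no overlap of the stimulated values. Another Ccne1 probeset had 0.24, not called. Cdk2 read 4.70, 5.06 and 5.34 in the double knockout, 6.27, 5.63, 5.50 and 5.82 in IRAK2 KO cells and 5.9996, 5.78, 5.44 and 5.60 in wild type. Cdk2 itself fell with MALP-2, -0.51 (SE 0.11, adjusted p = 0.0051), and unlike its cyclins was lower in the double knockout, -0.57 (SE 0.16, adjusted p = 0.02), a call missing without the 2 h arrays (-0.32), without the 4 h arrays (-0.67), with the median over its probesets (-0.20) and in the fit of the 2 genotypes alone (-0.57 (adjusted p = 0.056)). For E2f2 the double knockout had 4.22, 3.97 and 4.60, the IRAK2 knockout 4.58, 4.24, 4.06 and 4.02 and wild type 4.61, 4.10, 3.94 and 3.92. E2f2, an activating E2F factor, fell, with a response of -0.55 (SE 0.08, adjusted p = 0.0012), and had no called genotype difference. E2f1 was called nowhere and read 3.90 to 4.69 in the stimulated double knockout against 4.01 to 4.82 in the IRAK2 knockout and 4.08 to 4.34 in wild type.

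The MCM genes encode the 6 subunits of the replicative helicase, and they did not move as 1 block. The Mcm4 values were 8.94, 9.46 and 9.18 in the double knockout, 8.73, 8.22, 8.37 and 8.76 in IRAK2 KO cells and 8.72, 8.10, 7.99 and 8.002 in wild type. Mcm7 read 6.95, 6.99 and 7.43 in the double knockout, 7.34, 6.47, 6.40 and 6.93 in IRAK2 KO cells and 6.82, 5.96, 5.97 and 6.25 in wild type. For Mcm2 the double knockout had 5.06, 4.94 and 5.73, the IRAK2 knockout 5.14, 4.70, 4.16 and 4.45 and wild type 5.16, 4.19, 4.08 and 4.45. Mcm4, Mcm7 and Mcm2 fell under MALP-2, with differences of -0.48 (SE 0.14, adjusted p = 0.026), -0.75 (SE 0.09, adjusted p = 3.13e-04) and -0.81 (SE 0.12, adjusted p = 9.67e-04). They were also higher in the double knockout than in wild type, by 1.16 (SE 0.16, adjusted p = 8.39e-04), 1.06 (SE 0.11, adjusted p = 2.09e-04) and 1.001 (SE 0.17, adjusted p = 0.0019), with all 3 stimulated values above those of wild type and of the IRAK2 knockout. The Mcm4 response was not called without the 4 h arrays (-0.45). The Mcm5 values were 7.31, 7.31 and 7.40 in the double knockout, 7.01, 6.87, 6.71 and 6.87 in IRAK2 KO cells and 6.41, 6.25, 6.06 and 6.37 in wild type. Mcm5, whose promoter is printed above, had no called mean response, -0.19 (SE 0.08, adjusted p = 0.1), but was 1.11 (SE 0.11, adjusted p = 1.70e-04) higher in the double knockout. A second Mcm5 probeset gave 0.18, not called. Mcm6 read 6.63, 6.44 and 6.45 in the double knockout, 7.47, 6.64, 6.39 and 6.99 in IRAK2 KO cells and 7.80, 6.60, 6.53 and 6.75 in wild type. Mcm6, with 2 copies of the E2F word, fell as much as any MCM gene, -0.99 (SE 0.12, adjusted p = 3.41e-04), yet read -0.12 (SE 0.14, adjusted p = 0.53) in the double knockout against wild type, with overlapping values. For Mcm3 the double knockout had 7.51, 7.48 and 7.50, the IRAK2 knockout 7.40, 6.77, 7.42 and 7.73 and wild type 7.81, 7.04, 7.56 and 7.78. Mcm3 had no called mean response, was lower at 2 h, with a difference of -0.70 (SE 0.12, adjusted p = 0.0022) and differed by 0.56 (SE 0.18, adjusted p = 0.048) between 8 and 2 h, with no called genotype difference (0.04 (SE 0.18, adjusted p = 0.87)). That late difference was not called without wild type (0.48), without the IRAK2 knockout (0.37) or with centred arrays (0.44).

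Rrm2, the regulated subunit of ribonucleotide reductase, separated the 3 genotypes on the stimulated arrays, though not when the 0 h values are included. The Rrm2 values were 9.97, 9.83 and 9.63 in the double knockout, 9.75, 9.36, 9.11 and 9.08 in IRAK2 KO cells and 9.10, 8.50, 8.24 and 8.45 in wild type. It fell under MALP-2, with a difference of -0.63 (SE 0.09, adjusted p = 9.27e-04), and was 1.42 (SE 0.12, adjusted p = 8.04e-05) higher in the double knockout than in wild type and 0.63 (SE 0.12, adjusted p = 0.0036) higher than in the IRAK2 knockout, the last not called without the 4 h arrays (0.58). The IRAK2 knockout stood 0.79 (SE 0.12, adjusted p = 0.026) above wild type, and already 0.66 above it at 0 h. Its partner Rrm1 was called nowhere, at 4.89 to 5.38 in the stimulated double knockout, 5.02 to 5.22 in the IRAK2 knockout and 4.60 to 4.97 in wild type. Pcna read 8.96, 8.93 and 8.76 in the double knockout, 9.69, 9.21, 9.27 and 9.10 in IRAK2 KO cells and 9.49, 8.91, 9.09 and 9.01 in wild type. Pcna, the sliding clamp of the replication fork, fell, with a response of -0.49 (SE 0.09, adjusted p = 0.0022), but had no called difference between the double knockout and wild type, -0.12 (SE 0.11, adjusted p = 0.42). For Tk1 the double knockout had 4.37, 4.31 and 4.38, the IRAK2 knockout 4.52, 4.14, 4.09 and 4.67 and wild type 4.33, 3.78, 3.85 and 4.33. Tk1, thymidine kinase, fell, with a response of -0.28 (SE 0.09, adjusted p = 0.027), not called without the 2 h arrays (-0.19), without the 4 h arrays (-0.20) or with centred arrays (-0.21). Tyms, thymidylate synthase, was under the floor at 3.48 to 3.79 on the 11 arrays.

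Mki67 (Ki-67), a protein of mitotic chromosomes used as a marker of dividing cells, was the exception among the mitotic genes. The Mki67 values were 8.61, 7.01 and 6.90 in the double knockout, 5.94, 8.58, 6.82 and 6.86 in IRAK2 KO cells and 6.04, 8.97, 7.67 and 8.30 in wild type. It rose by 1.88 (SE 0.22, adjusted p = 2.96e-04), most at 2 h (2.79 (SE 0.27, adjusted p = 1.36e-04)), while Cdk1, Top2a and Birc5 fell. In the double knockout it was lower than in wild type, -0.81 (SE 0.20, adjusted p = 0.011), with a single-time difference of -0.36 at 2 h, -0.66 at 4 h and -1.40 at 8 h. The IRAK2 knockout differed from wild type by -0.89 (SE 0.20, adjusted p = 0.1), and the double knockout from the IRAK2 knockout by 0.09 (SE 0.20, adjusted p = 0.75). Mki67 was read by 1 probeset, and without the 4 h arrays its difference between the double knockout and wild type was -0.88, not called. As its printed promoter shows, it holds the CHR word 2 times, like Cdk1 and Top2a.

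Cdk1 read 5.82, 6.12 and 5.96 in the double knockout, 6.48, 5.88, 5.89 and 5.70 in IRAK2 KO cells and 6.05, 5.37, 5.49 and 5.51 in wild type. Cdk1, the kinase that drives entry into mitosis, fell, with a response of -0.63 (SE 0.09, adjusted p = 0.0011), and was 0.51 (SE 0.12, adjusted p = 0.0082) higher in the double knockout. For Top2a the double knockout had 5.70, 5.73 and 5.74, the IRAK2 knockout 5.50, 5.57, 5.17 and 4.66 and wild type 5.23, 5.17, 4.96 and 4.75. Top2a, the topoisomerase that untangles chromosomes, fell, with a response of -0.32 (SE 0.11, adjusted p = 0.044), and its stimulated double-knockout values, all between 5.70 and 5.74, gave a difference of 0.77 (SE 0.17, adjusted p = 0.0065) from wild type. The Top2a response was not called without the 4 h arrays (-0.33), without the 8 h arrays (-0.15) or with centred arrays (-0.24). The Birc5 values were 5.43, 5.34 and 5.02 in the double knockout, 5.29, 5.19, 5.17 and 4.61 in IRAK2 KO cells and 5.41, 4.76, 4.69 and 4.60 in wild type. Survivin (Birc5), part of the chromosomal passenger complex, fell, with a response of -0.51 (SE 0.13, adjusted p = 0.015), and was 0.57 (SE 0.12, adjusted p = 0.0063) higher in the double knockout. Without the 4 h arrays the genotype difference was not called for Cdk1 (0.45), Top2a (0.76) or Birc5 (0.54), and for Birc5 also not without those of 2 h (0.53). Read as the median over its probesets, Top2a had 0.26 for this difference and -0.14 for the response, both not called.

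Ccna2 read 6.43, 6.09 and 6.10 in the double knockout, 5.93, 5.64, 5.64 and 5.24 in IRAK2 KO cells and 5.48, 5.14, 5.43 and 5.48 in wild type. For Bub1 the double knockout had 4.89, 5.36 and 4.56, the IRAK2 knockout 4.50, 3.93, 4.23 and 3.74 and wild type 4.09, 4.10, 3.91 and 3.84. Cyclin A2 (Ccna2) and the spindle checkpoint kinase Bub1 had no called mean response, and were 0.86 (SE 0.16, adjusted p = 0.0035) and 0.99 (SE 0.15, adjusted p = 0.0014) higher in the double knockout than in wild type, without overlap. The Bub1b values were 3.72, 3.85 and 5.10 in the double knockout, 3.90, 3.55, 3.82 and 4.66 in IRAK2 KO cells and 3.40, 3.61, 3.62 and 3.95 in wild type. Bub1b, its checkpoint partner, differed by 0.95 (SE 0.19, adjusted p = 0.0093) between 8 and 2 h, with values near the floor, and another of its probesets gave 0.30, not called. Ccnb2 and Cdc20 were called nowhere, at 4.09 to 4.62 in the stimulated double knockout, 3.89 to 4.46 in the IRAK2 knockout and 3.20 to 4.24 in wild type. Aurka, Aurkb and Plk1, the mitotic kinases under the floor, read 3.29 to 4.23 on the 11 arrays.

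The CDK inhibitors Cdkn1a and Cdkn1b moved against each other. Cdkn1a read 9.90, 8.41 and 7.87 in the double knockout, 8.86, 11.10, 9.74 and 8.53 in IRAK2 KO cells and 8.84, 11.03, 9.96 and 8.84 in wild type. Cdkn1a, a p53 target that binds CDK2, was highest at 2 h in all 3 genotypes, with a response of 2.21 (SE 0.13, adjusted p = 1.40e-05) at 2 h, 0.998 (SE 0.13, adjusted p = 5.61e-04) at 4 h and -0.17 (SE 0.13, adjusted p = 0.35) at 8 h. It was lower in the double knockout, -1.22 (SE 0.15, adjusted p = 5.14e-04), with differences of -1.13 at 2 h, -1.55 at 4 h and -0.96 at 8 h. For Cdkn1b the double knockout had 8.52, 8.61 and 8.75, the IRAK2 knockout 8.48, 7.33, 7.07 and 7.71 and wild type 8.55, 7.16, 6.68 and 7.005. Cdkn1b, which FoxO factors are known to induce, fell, with a response of -1.35 (SE 0.14, adjusted p = 1.68e-04), and was 1.68 (SE 0.15, adjusted p = 1.03e-04) higher in the double knockout, whose values lay beside that of unstimulated wild type (8.55). A second Cdkn1b probeset with a mean of 3.88, at the floor, gave -0.53 for the double knockout and -0.89 for the response. For Cdkn1a 2 probesets gave -1.22 and -1.10.

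The Cdkn2c values were 4.77, 4.77 and 4.78 in the double knockout, 5.10, 4.38, 4.19 and 4.50 in IRAK2 KO cells and 5.38, 4.54, 4.60 and 4.33 in wild type. Cdkn2c, an INK4 inhibitor of CDK4 and CDK6, fell, with a response of -0.82 (SE 0.12, adjusted p = 9.28e-04). Its double-knockout values were 0.28 (SE 0.13, adjusted p = 0.11) from wild type, not called, and 0.42 (SE 0.13, adjusted p = 0.032) higher than in the IRAK2 knockout. The call against the IRAK2 knockout was missing without the 2 h arrays (0.43), without the 4 h arrays (0.33) and in the fit of the 2 genotypes alone (0.42 (adjusted p = 0.054)). Cdkn2d read 5.35, 5.13 and 4.97 in the double knockout, 5.59, 5.15, 5.30 and 5.35 in IRAK2 KO cells and 5.40, 4.85, 5.16 and 5.36 in wild type. The related Cdkn2d fell less, with a difference of -0.30 (SE 0.09, adjusted p = 0.028), not called without the 2 h arrays (-0.20), without the 4 h arrays (-0.32) or with centred arrays (-0.23). No genotype difference of Cdkn2d was called.

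Of the growth arrest genes, Trp53inp1, a p53-induced stress protein, had the largest mean response in the set. For Trp53inp1 the double knockout had 8.46, 9.55 and 9.50, the IRAK2 knockout 9.91, 6.64, 7.66 and 8.16 and wild type 9.95, 6.38, 6.87 and 6.83. It fell, with a response of -2.84 (SE 0.23, adjusted p = 4.93e-05), and the drop at 8 h was -1.75 in the IRAK2 knockout and -3.12 in wild type. The double knockout was 2.48 (SE 0.19, adjusted p = 5.49e-05) higher than wild type and 1.68 (SE 0.19, adjusted p = 3.58e-04) higher than the IRAK2 knockout, and the 3 genotypes kept this order at all 3 times. The Ccng2 values were 7.998, 7.29 and 6.71 in the double knockout, 6.50, 7.02, 5.48 and 5.71 in IRAK2 KO cells and 6.59, 6.74, 5.02 and 5.62 in wild type. Ccng2, a growth-inhibitory cyclin that FoxO factors are known to induce, had no called difference at 2 h (0.34 (SE 0.14, adjusted p = 0.088)) and was lower at 4 h, with a difference of -1.29 (SE 0.14, adjusted p = 2.80e-04). It was 1.54 (SE 0.21, adjusted p = 7.43e-04) higher in the double knockout than in wild type, at least 2-fold at every stimulated time. The mean response of Ccng2, -0.61, was not called without the 4 h arrays (-0.27).

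Gadd45a and Gadd45b, stress proteins that activate p38 and JNK signalling and interact with cell cycle proteins, rose early. Gadd45a read 7.41, 6.09 and 6.29 in the double knockout, 6.79, 8.80, 7.88 and 6.98 in IRAK2 KO cells and 6.65, 8.93, 8.40 and 7.90 in wild type. For Gadd45b the double knockout had 9.24, 8.19 and 7.20, the IRAK2 knockout 8.65, 10.42, 9.33 and 8.08 and wild type 8.65, 10.39, 9.33 and 8.78. At 2 h the response was 2.15 (SE 0.22, adjusted p = 1.92e-04) for Gadd45a and 1.76 (SE 0.18, adjusted p = 1.86e-04) for Gadd45b, and at 8 h 0.72 (SE 0.22, adjusted p = 0.04) and -0.22 (SE 0.18, adjusted p = 0.41). Both were lower in the double knockout than in wild type at all 3 times by at least 2-fold, with differences of -1.82 (SE 0.21, adjusted p = 3.40e-04) and -1.29 (SE 0.15, adjusted p = 3.86e-04). A further Gadd45b probeset read -3.76 for the same difference, larger but of the same sign. The mean Gadd45b response was not called without the 2 h arrays (0.23).

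The Btg2 values were 4.32, 4.31 and 4.55 in the double knockout, 4.80, 6.06, 5.34 and 4.47 in IRAK2 KO cells and 4.74, 6.003, 5.70 and 4.85 in wild type. Btg2, an antiproliferative p53 target, rose at 2 h by 1.26 (SE 0.15, adjusted p = 3.21e-04) and was -1.12 (SE 0.29, adjusted p = 0.014) in the double knockout against wild type, with the 8 h values of the 2 genotypes close together (4.55 against 4.85). This genotype call was missing without the 2 h arrays (-0.84) or the 4 h arrays (-0.99), and the mean response of Btg2 without those of 2 h (0.32). Btg1 read 12.49, 12.25 and 11.98 in the double knockout, 11.59, 12.26, 12.08 and 11.94 in IRAK2 KO cells and 11.68, 12.26, 12.05 and 11.72 in wild type. The related Btg1 rose by 0.41 (SE 0.09, adjusted p = 0.0077), not called without the 2 h arrays (0.31), and its double-knockout difference of 0.23 (SE 0.11, adjusted p = 0.11) was not called. Of its other probesets, the one with the higher mean gave 0.35 for that difference and the one with the lower mean -0.57.

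The IRAK2 knockout lay between the other genotypes for many of these genes, though few differences passed the test. In it, 1 of 41 members was called higher than wild type over the stimulated times, Rrm2, and 0 lower, against 0.414% and 0.35% of all genes. At an unadjusted p under 0.05 there were 14 of 41 members, and 1482 of the 10858 genes tested. The Rrm2 call was missing without the arrays of 2, 4 or 8 h (0.75, 0.75 and 0.87) and in another probeset (0.58). Fitted without the double knockout, 5 members were higher (Ccnd1, Mcm5, Mcm7, Rrm2 and Trp53inp1) and 2 lower (Ccnd2 and Mki67). The shares of all genes given above belong to the fit of the 3 genotypes. Those of the fit without the double knockout are not given here, so these 7 calls have no base to be read against. The median difference was 0.17 for the members and 0.02 for all genes. A positive difference was found in 31 of 41 members and in 5916 of the 10858 genes tested. Before MALP-2 the IRAK2 knockout already read 0.61 above wild type for Mcm5, 0.54 for Ccnd1 and 0.52 for Mcm7, single differences without a test.

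Against the IRAK2 knockout, the double knockout was higher for 17 members and lower for 6, where 22.1% of all genes were higher and 16.8% lower. Without the 4 h arrays 7 were higher and 3 lower, and without those of 2 h 3 were lower, in fits whose shares of all genes are not given here. Ccnd1 differed by 1.31 (SE 0.11, adjusted p = 9.67e-05), Cdkn1b by 1.25 (SE 0.15, adjusted p = 4.51e-04), Bub1 by 0.97 (SE 0.15, adjusted p = 0.0016), Cdkn1a by -1.06 (SE 0.15, adjusted p = 0.0011) and Gadd45a by -1.29 (SE 0.21, adjusted p = 0.0018). With the median over its probesets Cdkn1b had 0.27, not called. This contrast shares the double-knockout arrays with the one against wild type. The order double knockout, IRAK2 knockout, wild type from high to low held at 2, 4 and 8 h for 14 of 41 members, against 7.64% of all genes tested. They were Ccnd1, Ccne1, Ccne2, Rb1, Rbl1, Mcm2, Mcm4, Mcm5, Mcm7, Rrm2, Birc5, Cdkn1b, Trp53inp1 and Ccng2, which include inhibitors of the cell cycle as well as genes that drive it. The reverse order held for 1 member, Gadd45a (4.34% of all genes).

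Cdkn1b, Trp53inp1 and Ccng2, which restrain division, and Ccnd1, Mcm5 and Rrm2, which serve it, were the 6 members at least 2-fold higher in the double knockout than in wild type at 2, 4 and 8 h, a pattern of 2.12% of all genes tested. Ccnd2, Gadd45a and Gadd45b were the 3 members at least 2-fold lower at all 3 times, a pattern of 2.2% of all genes. In the wild type alone, Ccnd2, Mki67 and Gadd45a were at least 2-fold above 0 h at each time (3.13% of all genes), and Mcm6, Cdkn1b and Trp53inp1 at least 2-fold below it (2.81%). In the IRAK2 knockout 0 members were above and 1, Trp53inp1, below in the same way, where 2.04% and 1.32% of all genes were. The difference between these counts was not tested.

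Cdkn1a, Gadd45a and Gadd45b, which were high at 2 h, were lower at 8 h than at 2 h. Over the 3 genotypes 6 members were higher at 8 h than at 2 h and 7 lower, where 16% of all genes were higher and 7.04% lower. Centring the arrays shifted all genes by -0.13 and gave 4 members higher and 10 lower. The shares of all genes called with centred arrays are not given here, so these 2 counts have no base. The 7 were Cdkn1a (-2.26 (SE 0.15, adjusted p = 1.65e-04)), Gadd45b (-1.99 (SE 0.15, adjusted p = 2.55e-04)), Mki67 (-1.36), Gadd45a (-1.32), Ccng2 (-1.24), Cdk6 (-0.68) and Btg1 (-0.46). Ccnd2 and Btg2, which also rose at 2 h, had differences of -0.73 (adjusted p = 0.24) and -0.84 (adjusted p = 0.067) between 8 and 2 h, not called. The 6 were Trp53inp1 (1.01), Bub1b (0.95), Rbl1 (0.92), Ccnd3 (0.62), Mcm3 (0.56) and Mcm7 (0.41). Without the IRAK2 knockout 0 were higher and 2 lower, and without wild type 2 were higher, in fits whose shares of all genes are not given here. A change of the genotype difference with time was called for 0 members in either knockout with limma, in a fit with 2 residual degrees of freedom. At an unadjusted p under 0.05 there were 9 of 41 members for the double knockout and 5 for the IRAK2 knockout. Among the 10858 genes tested there were 1629 for the double knockout and 536 for the IRAK2 knockout. Of all genes, 0.0276% were called with a higher and 0.111% with a lower slope in the double knockout, and 0% and 0.00921% in the IRAK2 knockout.

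Related genes outside the set were read from 5 lists by pathway. Like the members, these lists were chosen with earlier results of these data known. Their shares therefore describe these data and are no independent support. Of 39 tested replication and S-phase genes, 21 were higher and 2 lower in the stimulated double knockout than in wild type (53.8% and 5.13%, against 23.8% and 17.4% of all genes). Among them were Dnmt1, the maintenance DNA methyltransferase (1.27, adjusted p = 4.51e-04), Cdc7 (1.03), Ung (0.84) and, lower, Pola2 (-1.26). Over these 39 genes the response was 3 higher and 21 lower (7.69% and 53.8%, against 18.8% and 28% of all genes). It included Rfc2 at -1.38, Dnmt1 at -0.98, Gins1 at -0.94 and Pola2 at 1.59. Of 40 mitotic genes, 23 were higher in the double knockout and 0 lower (57.5% and 0%). They included Wee1, a brake on Cdk1, at 1.48 (adjusted p = 0.0025), Hmmr at 1.45, Aspm at 1.25 and Cdca5 at 1.17. Over these 40 genes the response was 4 higher and 13 lower, led by Cdc25b (-1.53), Cenpa (-1.49), Wee1 (-1.12) and, higher, Cdc25a (1.03). These are 10% and 32.5%, against 18.8% and 28% of all genes, so the share that fell was near that of all genes. The medians in the double knockout were 0.47 and 0.67, against 0.07 for all genes.

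FoxO factors and their targets had the highest median difference of the 5 lists in the double knockout, 0.70. As the lists were chosen with earlier results known, this rank is only a description. Of 20 tested, 12 were higher in the double knockout than in wild type and 0 lower (60% and 0%, against 23.8% and 17.4% of all genes). Under MALP-2 14 fell and 1 rose (70% and 5%, against 28% and 18.8%). For Fbxo32 the double knockout had 7.01, 7.35 and 7.72, the IRAK2 knockout 7.80, 3.56, 4.08 and 5.03 and wild type 8.14, 3.09, 3.49 and 3.81. Fbxo32, a ubiquitin ligase subunit known as a FoxO target in muscle, fell, with a response of -4.13 (SE 0.24, adjusted p = 1.17e-05), and was 3.90 (SE 0.16, adjusted p = 4.87e-06) higher in the double knockout. The insulin receptor gene Insr was 1.90 higher and fell, with a response of -1.36, Tob1 was 1.30 and Foxo4 1.17 higher, and Pink1 and Foxo3 responded by -1.33 and -1.21.

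Other p53 targets went both ways: 8 of 19 rose and 8 fell under MALP-2 (42.1% each, against 18.8% and 28% of all genes), with Fas at 2.57, Ddb2 at 1.01, Aen at 0.98 and Sesn1 at -1.59. In the double knockout 5 were higher and 3 lower (26.3% and 15.8%), near the 23.8% and 17.4% of all genes, with Sesn1 at 1.67, Xpc at 1.25, Plk2 at 0.92 and Fas at -1.21. Among 36 antiproliferative and MYC network genes 9 rose and 13 fell (25% and 36.1%, against 18.8% and 28% of all genes), and 11 were higher and 7 lower in the double knockout (30.6% and 19.4%, against 23.8% and 17.4%). Myc itself was lower there, -1.47 (SE 0.31, adjusted p = 0.0057), and its antagonist Mxd4 higher, 1.44 (SE 0.19, adjusted p = 5.80e-04), while E2f8, an E2F repressor, was lower, with a difference of -2.49 (SE 0.21, adjusted p = 9.14e-05), as was Gas7, at -1.43. Their responses included Gas7 (2.23), Mxd4 (-1.97), Gadd45g (-1.87) and Mxi1 (-1.68). In the IRAK2 knockout 0 genes of these 5 lists were called against wild type. At an unadjusted p under 0.05 there were 4 to 9 replication, mitotic, FoxO and MYC network genes each and 1 p53 target. The same held for 1482 of the 10858 genes tested.

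**Figure D4:**
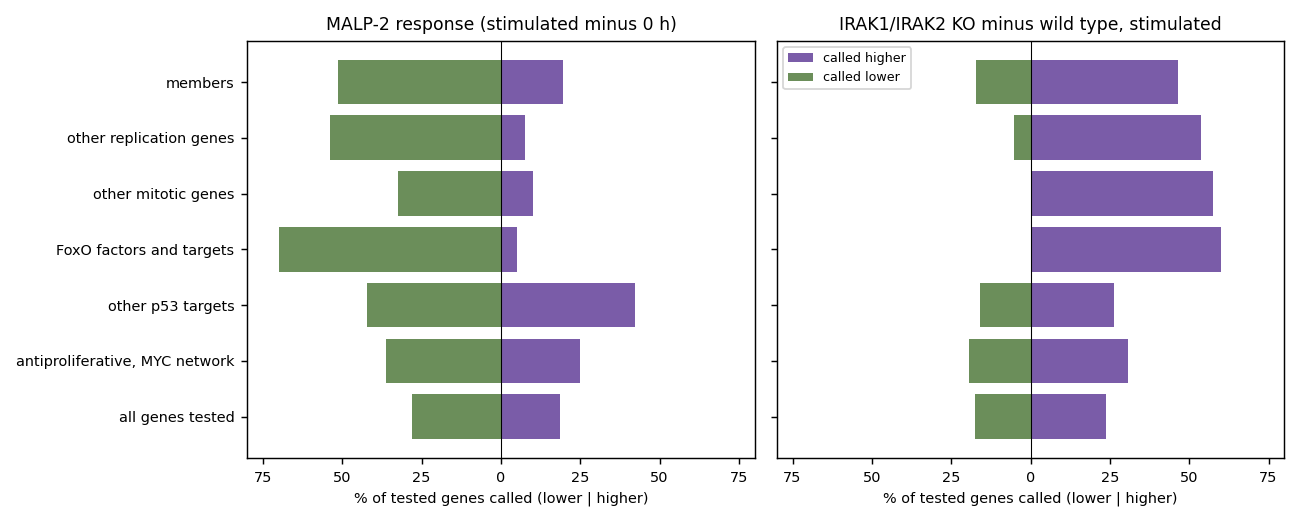
Share of tested genes called higher or lower (x axis, percent) in each list, with all genes tested in the last row of each panel. In the double knockout against wild type, 53.8% to 60% of the replication, mitotic and FoxO genes are higher, against 23.8% of all genes. The lists were chosen with earlier results of these data known.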

How the data were processed

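Mouse peritoneal macrophages of 3 genotypes at 4 times were measured on 12 Affymetrix arrays, 1 per group. The deposited table holds log2 intensities for 45101 probesets, which the authors made with RMA per the submitters' processing notes, in a version that these sources do not name. RMA brings the arrays to similar distributions, so differences are relative to the bulk of genes, and low values are compressed. The distributions were not equal: the array medians ran from 3.81 to 3.86, with 4.08 for the double-knockout array of 0 h. Of the probesets, 34958 carry 1 gene symbol, 932 several and 9211 none in GEO's platform annotation, and those with 1 symbol gave 18194 genes. The number of table columns not used was 0. Each gene was read from the probeset with the highest mean over the 11 arrays other than the double-knockout array of 0 h.

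With limma 3.58.1 in R 4.3.3, genotype and time were additive factors. Genotype differences and 8 h against 2 h used the 9 stimulated arrays (residual df 4 and prior df 4.75, with a prior SD of 0.167), and the MALP-2 response used the 8 arrays of the IRAK2 knockout and wild type (residual df 3 and prior df 4.92, with a prior SD of 0.125). Benjamini-Hochberg adjustment ran over the 10858 genes with a mean at or above 3.83, and the threshold was an adjusted p of 0.05. Slopes on log2 hours were fitted on the 9 arrays. The fits were tested on simulated data. Array values were printed for each member called in a contrast, or at least 2-fold apart at all 3 times, and ranges for the others; of each pathway list up to 4 called genes per contrast with the largest difference were named. Promoter windows were searched for 6 words with Python 3.11.15. The members and lists were chosen with earlier results of these data known. Other probeset rules, floors, centring, a trended variance and left-out arrays were tried.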

Additional observations from a re-analysis of the deposited data

Results flagged for a closer look

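The 0 h array of the double knockout, which enters no comparison, held 3 of the 41 tested members at least 1 log2 above both other unstimulated arrays. The share of all genes that meet this rule is not given here, so the count has no base to be read against. Ccne2 read 5.88 there, against 4.84 in the IRAK2 knockout and 4.59 in wild type. Mki67 read 8.80, against 5.94 in the IRAK2 knockout and 6.04 in wild type, and Ccng2 8.19, against 6.50 in the IRAK2 knockout and 6.59 in wild type. Tyms, under the floor and so not tested, also read higher, 4.71 against 3.52 in the IRAK2 knockout and 3.68 in wild type. The same array read low for other members, such as Cdk4 at 5.03 against 8.48 in the IRAK2 knockout and 8.42 in wild type. Its median over all probesets was 4.08 against 3.81 to 3.86 on the other 11 arrays. These differences of single arrays have no test.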

How the results depend on the processing

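Over the alternatives, 92 called results of members gave 1025 values, of which 852 kept direction and call, 159 kept direction and lost the call (51 of them with all 12 arrays) and 14 turned; where no cause is given, the cause was not tested. Leaving out a time removes 3 of the 9 arrays of the genotype fits and 2 of the 8 of the response fit. The member counts that follow stand without the shares of all genes in the same settings. With all 12 arrays, which brings in the 0 h array that stood apart, the double knockout against wild type had 5 members higher, against the IRAK2 knockout 1 higher and 3 lower, the IRAK2 knockout against wild type 0 higher, and the response 3 higher and 1 lower. In that setting the response turned for Ccnd1 (0.30), Cdk4 (0.77), Cdk2 (0.027), Mcm4 (0.37), Pcna (0.10), Tk1 (0.028) and Birc5 (0.15), the double knockout against wild type for Cdk6 (-0.11) and Mki67 (0.085), and against the IRAK2 knockout for Cdk6 (-0.016). Without the 4 h arrays the double knockout had 4 members lower than wild type, and 7 higher and 3 lower than the IRAK2 knockout; without the 2 h arrays 3 were lower than in the IRAK2 knockout, and 5 members had a higher response. The IRAK2 knockout against wild type had 0 members higher without the arrays of 2, 4 or 8 h, without probesets ending in _x_at or _s_at, and with the median over probesets, 2 with the floor raised by 1 log2, and 5 higher and 2 lower in the fit of these 2 genotypes alone. With the median over the probesets of a gene, the double knockout had 10 members higher than the IRAK2 knockout, 3 were higher at 8 h than at 2 h, and Cdk6 turned to -0.63 against wild type and -0.41 against the IRAK2 knockout. Mcm5 turned to -0.12 against the IRAK2 knockout with that median and without probesets ending in _x_at or _s_at. Between 8 and 2 h, 2 members were higher without wild type, and 0 higher and 2 lower without the IRAK2 knockout. Without probesets ending in _x_at or _s_at, 18 further mitotic genes were higher and 1 lower in the double knockout against wild type. No paired analysis was possible because each group has 1 array and the labels carry no replicate numbers. The number of arrays limits precision, and members near the floor of 3.83, such as Bub1b, Tk1 and E2f2, have compressed differences.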
